A study of Arabidopsis thaliana with 12 samples.

Results

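Cytochrome P450 genes were followed in shoots of the Arabidopsis thaliana mutant lcs7 and its wild type Col-0 at a low and a high calcium supply. They were taken as every gene whose probe set names 1 gene, with a symbol made of CYP, a number of 2 or 3 digits and a capital letter. This gave 23 of 13356 genes, each with 1 probe set on the array. Of the 23 genes 19 belong to the CYP71B family, and CYP51G2, CYP78A9, CYP79A2 and CYP84A4 each stand for another family. The reference annotation gives such a symbol to 236 genes, 36 of them CYP71B, and those without a single-gene probe set of that name were not analysed here.

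Cytochromes P450 are haem enzymes that, in plants, mostly sit on the endoplasmic reticulum and insert 1 oxygen atom into small molecules with electrons from NADPH. They make and break down hormones, cell wall phenolics, sterols, waxes and defence compounds. In Arabidopsis the CYP71B family is large and many of its genes lie side by side. Its best known enzyme, CYP71B15 or PAD3, makes the defence compound camalexin, and it was not analysed here. CYP71B6 acts in the same area of indole metabolism, where it converts indole-3-acetonitrile towards indole-3-carboxylic acid compounds.

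The labels place 12 arrays in 4 groups of 3 biological replicates. These were lcs7 at 0.3 mM calcium, lcs7 at 2 mM calcium, Col-0 at 0.3 mM calcium and Col-0 at 2 mM calcium. All were shoots of 14-day-old seedlings in the Col-0 background, grown on agar with sucrose, and lcs7 is mutated in AVP1, which codes for a proton pump of the vacuole driven by pyrophosphate. The mutation is represented by 1 line, so an effect of AVP1 and another difference of that line cannot be told apart. AVP1 itself was not analysed here. Values are the authors' probe set signals on a linear scale, differences are log2 differences of group means, and a gene was called at a limma adjusted p under 0.05.

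Array medians ran from 161.3 to 187.6. Among the low-calcium Col-0 arrays, replicates 2 and 3 stood apart from replicate 1 at 11 genes that were far higher in lcs7 than in Col-0 at 2 mM calcium. On a scale from Col-0 at 2 mM (0%) to lcs7 at 0.3 mM (100%) their medians were 25.5 and 37.2%, and that of replicate 1 was -0.060%. The main results that use Col-0 at 0.3 mM calcium are therefore also given with these 2 arrays left out, where the lone Col-0 array is assumed to vary like the other groups. Of the 7 shoot markers listed, the 2 measured were bright, with RCA, the activase of Rubisco, at 17245 to 25510 over all arrays. Of the 7 root markers 2 were measured. EXPA7, an expansin of root hairs, lay at 13.1 to 27.8 in lcs7 at 0.3 mM, 33.5 to 43.0 in lcs7 at 2 mM, 8.4 to 45.1 in Col-0 at 0.3 mM and 7.0 to 26.4 in Col-0 at 2 mM calcium. PYK10, a beta-glucosidase of roots, lay at 4473 to 7033 in lcs7 at 0.3 mM, 2469 to 2994 in lcs7 at 2 mM, 1351 to 1657 in Col-0 at 0.3 mM and 907.0 to 1038 in Col-0 at 2 mM calcium. The 2 shoot markers summed to 21821 to 22034 in lcs7 at 0.3 mM, 37704 to 43200 in lcs7 at 2 mM, 27907 to 32088 in Col-0 at 0.3 mM and 29565 to 32195 in Col-0 at 2 mM calcium. The 2 root markers summed to 4486 to 7054, 2502 to 3030, 1372 to 1665 and 925.7 to 1064 in the same groups. The root sum is carried by PYK10, while the shoot sum also moved with its dimmer gene LHCB4.2, a light-harvesting protein. PYK10 was highest and RCA lowest in lcs7 at 0.3 mM calcium, the group in which several P450 genes below were also highest, whereas EXPA7 was lower there than in lcs7 at 2 mM. LHCB4.2 lay at 4393 to 4691 in lcs7 at 0.3 mM and overlapped the 4137 to 8190 of Col-0 at 0.3 mM calcium. At 2 mM calcium it lay at 14130 to 17690 in lcs7 and 7430.5 to 8189.5 in Col-0. RCA at 2 mM overlapped between the lines, with 23117 to 25510 in lcs7 and 22135 to 24418 in Col-0. The part of these markers in the results was not tested. In whole shoots, more cells that express a gene and more RNA per cell cannot be told apart.

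The members fell into 12 brighter genes, with geometric mean signals of 72.7 to 1237 over all arrays, and 11 dimmer genes with means of 2.17 to 33.8. The split at a mean of 50 was chosen after the values were seen, in the gap between the groups. Signals under 20 are near background. CYP79A2, CYP71B30P and CYP71B31 were under 20 in all 12 arrays, and CYP71B16 and CYP71B21 in 11 and 10 of them. The SD between replicates on the log2 scale had a median of 0.23 among the brighter genes and 0.85 among the dimmer ones. The SE of a difference was accordingly 0.12 to 0.41 for the brighter genes and 0.39 to 1.28 for the dimmer ones.

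**Figure D1:**
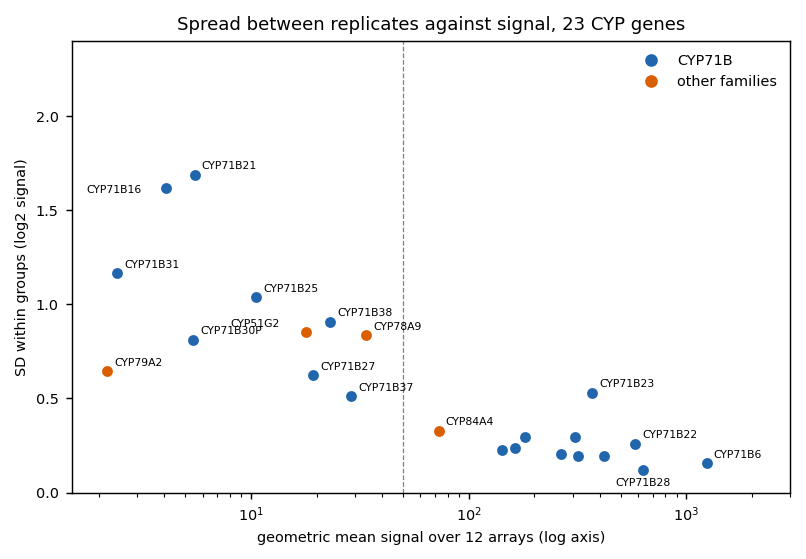
Each point is 1 of the 23 CYP genes, with its geometric mean signal over the 12 arrays on the x axis (arbitrary units, log axis) and the SD within groups, pooled over the 4 groups of 3, on the y axis (log2 signal). The 11 genes left of the dashed line at 50 had SDs of 0.51 to 1.69, and the 12 genes right of it had SDs of 0.12 to 0.53, with CYP71B23 the widest of these.

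CYP71B6 was the member whose response to calcium passed the test of a difference between the lines. Its signals were 2766, 2825 and 2973 in lcs7 at 0.3 mM calcium and 880.5, 693.9 and 838.2 in lcs7 at 2 mM calcium. They were 1261, 1047 and 912.2 in Col-0 at 0.3 mM and 963.4, 1011 and 915.8 in Col-0 at 2 mM calcium. The 3 lcs7 arrays at low calcium were all above the other 9, which lay between 693.9 and 1261. In lcs7 the gene rose 3.57-fold with low calcium (log2 difference 1.83 ± 0.14 SE, n = 3 arrays per group, limma adjusted p = 0.00012). In Col-0 the difference was 0.14 ± 0.14 (95% interval -0.16 to 0.45, adjusted p = 0.650), or 0.39 with the low-calcium replicates 2 and 3 left out (adjusted p = 0.258). The interaction, the genotype effect at 0.3 mM minus that at 2 mM calcium, was 1.69 ± 0.19 (adjusted p = 0.0102). CYP71B6 was the 1 of 23 members called for the interaction, beside 2.31% of all genes. With the low-calcium Col-0 replicates 2 and 3 left out its interaction was 1.45 (adjusted p = 0.0673), and limma then called 0 of 23 members and 0 of 13356 genes, with 6 members and 1869 genes at an unadjusted p under 0.05.

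At 0.3 mM calcium limma called 6 members higher in lcs7 than in Col-0 and 0 lower. An unadjusted p under 0.05 was reached by 8 of 23 members, CYP71B35 among them as lower, beside 4008 of 13356 genes. The 6 called are all brighter CYP71B genes: CYP71B36, CYP71B6, CYP71B26, CYP71B22, CYP71B29 and CYP71B24, with folds from 3.35 down to 1.58. The members' share called higher was 26.1%, beside 6.99% of all genes, and 16.8% of all genes were called in either direction. The median log2 difference of the 23 members was 0.43, beside -0.05 over all genes. This median was 0.23 without lcs7 replicate 1, 0.25 without Col-0 replicate 1 and 0.77 without lcs7 replicate 3, all at 0.3 mM calcium. Among genes with a mean signal of at least 50, 807 of 8424 were called higher.

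CYP71B36 had the widest difference of these. It had signals of 718.1, 520.9 and 612.8 in lcs7 at 0.3 mM calcium, against 238.5, 156.3 and 163.9 in Col-0 at 0.3 mM. The lowest lcs7 array was above the highest Col-0 array by a wide margin, and the log2 difference was 1.74 ± 0.23 (adjusted p = 0.00158). CYP71B6 differed by 1.42 ± 0.14 (adjusted p = 0.000399). CYP71B26 had 618.2, 666.4 and 523.4 in lcs7, against 297.3, 247.5 and 328.2 in Col-0, a difference of 1.05 ± 0.16 (adjusted p = 0.00291) with no overlap. At 0.3 mM calcium the lines did not overlap, in either direction, for 43.5% of the members, beside 35.7% of all genes. CYP71B22 had 1219, 954.0 and 964.6 in lcs7. In Col-0 at 0.3 mM it had 552.2, 558.9 and 551.6. The Col-0 arrays were nearly equal and all lay below lcs7 (0.91 ± 0.21, adjusted p = 0.0170). The smallest called differences were those of CYP71B29 (0.67 ± 0.19, adjusted p = 0.0361) and CYP71B24 (0.66 ± 0.17, adjusted p = 0.0276).

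With the low-calcium Col-0 replicates 2 and 3 left out, 1 Col-0 array remains, without a spread of its own. The differences were then 1.18 for CYP71B6, 1.01 for CYP71B26 and 1.36 for CYP71B36. They were 0.91 for CYP71B22, 0.89 for CYP71B29 and 0.42 for CYP71B24. Among the brighter members replicate 1 had the highest of the 3 Col-0 signals at 0.3 mM for CYP71B6, CYP71B36, CYP71B24 and CYP71B23. It had the lowest for CYP71B29, CYP71B5, CYP71B34 and CYP71B35, and the middle one for CYP71B22, CYP71B26, CYP71B28 and CYP84A4. At the 11 genes above it was the least lcs7-like. The 6 calls at members fell to 3 without Col-0 replicate 3 or without lcs7 replicate 1 at 0.3 mM calcium, and to 4 without lcs7 replicate 2 at 0.3 mM. Over all genes the 2243 calls fell to 1610, 1506 and 1522 in the same order.

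**Figure D2:**
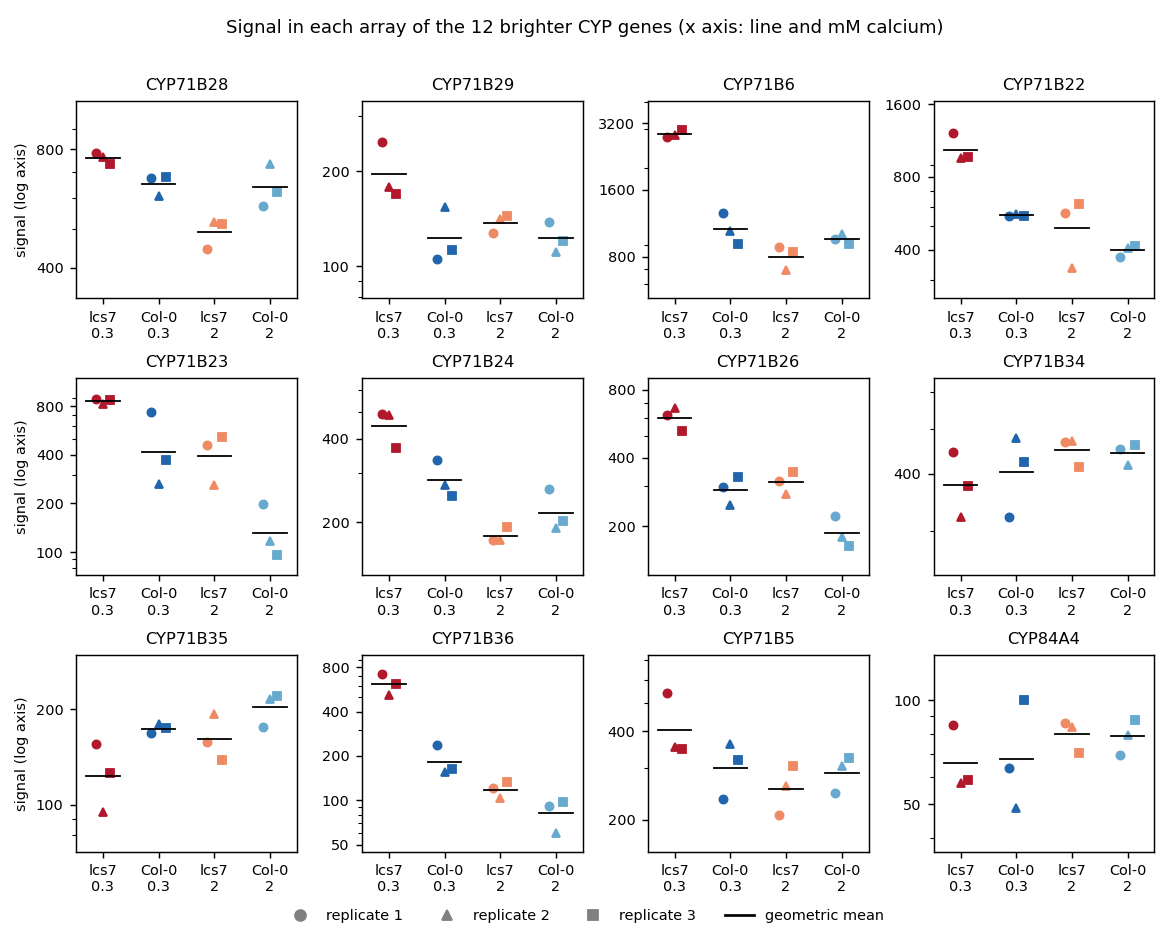
Signals (arbitrary units, log axis, a separate scale for each gene) of the 12 brighter CYP genes in lcs7 and Col-0 at 0.3 mM and then at 2 mM calcium. Points are arrays, with a shape for each replicate number, and bars are geometric means of 3 arrays. In 7 of the genes, CYP71B6, CYP71B22, CYP71B23, CYP71B24, CYP71B26, CYP71B29 and CYP71B36, all 3 lcs7 arrays at 0.3 mM lie above the other 9 arrays.

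Low calcium raised 7 members in lcs7 and lowered 0, with 10 of 23 at an unadjusted limma p under 0.05, beside 4491 of 13356 genes. The 7 called were CYP71B6, CYP71B36, CYP71B24, CYP71B26, CYP71B28, CYP71B22 and CYP71B37. The share called higher was 30.4%, beside 10.0% of all genes, and 21.8% of all genes were called in either direction. The median log2 difference of the members was 0.62, beside -0.05 over all genes, and 0.34 without lcs7 replicate 1 at 0.3 mM. Differences were positive in 9 of the 12 brighter members, beside 48.2% of all genes with a mean signal of at least 50. This comparison and that between the lines at low calcium share the 3 lcs7 arrays at 0.3 mM.

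CYP71B36 showed the widest rise, 5.16-fold (2.37 ± 0.23, adjusted p = 0.000297). Its signals at 2 mM calcium were 120.7, 103.2 and 133.6 in lcs7, all far under the 3 values at 0.3 mM given above. CYP71B24 rose 2.50-fold, with 492.0, 488.6 and 372.5 in lcs7 at 0.3 mM, against 171.9, 172.7 and 192.2 in lcs7 at 2 mM calcium (1.324 ± 0.17, adjusted p = 0.000853). CYP71B22 rose by 1.09 ± 0.21 (adjusted p = 0.00586) and CYP71B26 by 0.94 ± 0.16 (adjusted p = 0.00350). CYP71B28 had a small but tight rise, with 783.9, 764.8 and 731.4 at 0.3 mM, against 446.4, 521.8 and 516.3 at 2 mM calcium (0.62 ± 0.12, adjusted p = 0.00493). CYP71B37 is the 1 dimmer gene called in any comparison as reported. Its signals were 51.7, 27.1 and 44.7 in lcs7 at 0.3 mM, against 23.5, 7.5 and 18.0 in lcs7 at 2 mM, where 2 arrays are under 20 (1.43 ± 0.39, adjusted p = 0.0287). With signals under 20 raised to 20 its difference was 0.91. It had 37.3, 48.4 and 35.6 in Col-0 at 0.3 mM calcium, against 32.3, 27.2 and 29.3 in Col-0 at 2 mM (0.44 ± 0.39, adjusted p = 0.630). The difference between the lines at 2 mM (-1.01, adjusted p = 0.261, or -0.48 with signals under 20 raised to 20) and the interaction (0.99, adjusted p = 0.427) did not pass.

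At 2 mM calcium 1 member was called between the lines. This was CYP71B26, with 315.0, 276.3 and 348.1 in lcs7, against 221.0, 178.4 and 162.4 in Col-0. The arrays did not overlap and the difference was 0.75 ± 0.16 (adjusted p = 0.0476), close to the threshold. That is 1 of 23 members, beside 2.75% of all genes, and 6 of 23 members had an unadjusted p under 0.05, beside 2015 of 13356 genes. The call was lost in each of the 12 fits without 1 array (adjusted p from 0.0528 to 0.166). CYP71B28 at 2 mM was lower in every lcs7 array than in every Col-0 array (446.4 to 521.8, against 573.5 to 734.5), but did not pass (-0.37 ± 0.12, adjusted p = 0.152). At 2 mM the lines did not overlap, in either direction, for 34.8% of the members, beside 21.4% of all genes. The median of the members was 0.06, beside -0.04 over all genes.

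In Col-0 limma called 0 of 23 members between 0.3 and 2 mM calcium, beside 0.307% of all genes. An unadjusted p under 0.05 was reached by 6 of 23 members, beside 2337 of 13356 genes. The closest was CYP71B36, with 238.5, 156.3 and 163.9 at 0.3 mM, against 92.2, 59.9 and 97.9 at 2 mM calcium. Its arrays did not overlap, as for 30.4% of the members and 22.3% of all genes in either direction. It stood 2.24-fold higher at low calcium (1.17 ± 0.23, adjusted p = 0.0628). Without Col-0 replicates 2 and 3 the difference was 1.55 (adjusted p = 0.0774). CYP71B26 differed by 0.64 ± 0.16 (adjusted p = 0.09995), also without overlap, and by 0.68 with those arrays left out (adjusted p = 0.180). The intervals of CYP71B28 (0.03, 95% interval -0.23 to 0.29) and CYP71B6 lay within a fold of 2 in either direction. Low calcium was thus followed by a difference past the threshold in lcs7 and not in Col-0 for 7 members. Over all genes 2915 were called in lcs7 and 41 in Col-0, so most calls in lcs7 lack one in Col-0. Among the members the difference between the lines itself passed only for CYP71B6. The interaction was 0.31 ± 0.23 for CYP71B26 (limma adjusted p = 0.574) and 0.60 ± 0.30 for CYP71B22 (adjusted p = 0.355). For CYP71B36 the interaction was 1.20 ± 0.33 (adjusted p = 0.0996), for CYP71B24 0.94 ± 0.24 (adjusted p = 0.0803) and for CYP71B28 0.59 ± 0.16 (adjusted p = 0.0999). With the 2 arrays left out these were 0.82 (adjusted p = 0.401), 0.70 (adjusted p = 0.340) and 0.54 (adjusted p = 0.309).

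CYP71B23 differed by large folds without being called in any comparison as reported, though some alternatives called it. Its signals were 881.8, 824.4 and 873.4 in lcs7 at 0.3 mM and 457.5, 258.8 and 514.7 in lcs7 at 2 mM calcium. In Col-0 they were 732.1, 264.9 and 371.3 at 0.3 mM and 198.0, 117.4 and 96.4 at 2 mM calcium. Groups compared did not overlap in any of the 4 simple comparisons, and the highest group was tight while the other 3 were spread. Among all genes, 21.4% did not overlap between the lines at 2 mM and 35.7% at 0.3 mM. Between the calcium levels it was 22.3% in Col-0 and 41.7% in lcs7. CYP71B23 was 3.01-fold higher in lcs7 than in Col-0 at 2 mM (adjusted p = 0.0839) and 2.07-fold higher at 0.3 mM calcium (adjusted p = 0.117). Low against high calcium gave 2.18-fold in lcs7 (adjusted p = 0.0803) and 3.18-fold in Col-0 (adjusted p = 0.0888). With 50 added to each signal, limma called the calcium difference in lcs7 (adjusted p = 0.0309) and in Col-0 (adjusted p = 0.0396). It then also called the lines at 2 mM (adjusted p = 0.0405), and not at 0.3 mM (adjusted p = 0.0512). With replicate number in the model only the difference in lcs7 passed (limma adjusted p = 0.0446). That difference passed in 1 of the 12 fits without 1 array. With the low-calcium Col-0 replicates 2 and 3 left out the difference from lcs7 at 0.3 mM was 0.23 on the log2 scale (adjusted p = 0.834), beside 1.05 with them. The calcium difference in Col-0 was then 2.48 (adjusted p = 0.0733), beside 1.67 with them.

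**Figure D3:**
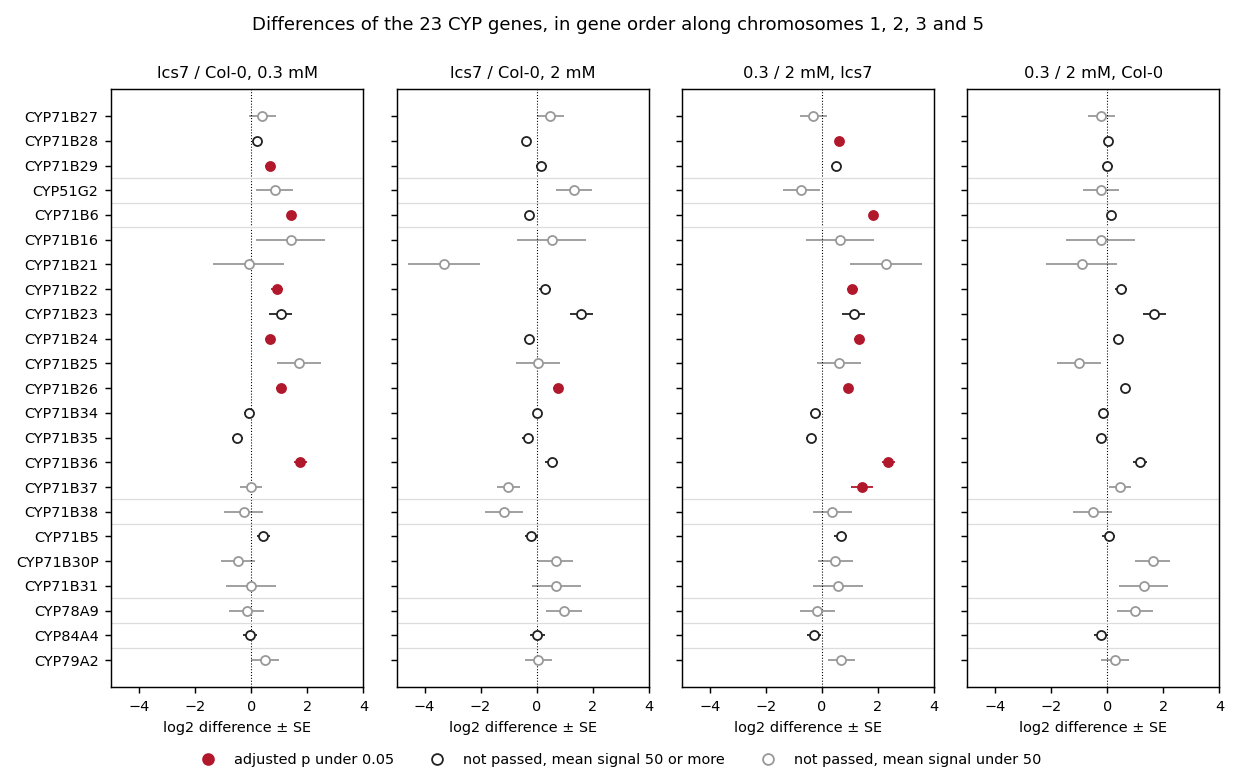
Log2 differences of group means with SE (n = 3 arrays per group) for the 23 CYP genes in the 4 simple comparisons, in gene order along chromosomes 1, 2, 3 and 5, with grey lines between separate runs of genes. Filled points passed an adjusted p of 0.05, which 6, 1, 7 and 0 genes did from left to right. CYP71B34 and CYP71B35 lie below 0 at 0.3 mM and in both calcium panels, while CYP71B36 lies above 0 in all 4.

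Many of the CYP71B genes lie in runs, and whether position bears on response was not tested. On chromosome 3, 11 measured members from CYP71B16 to CYP71B37 follow each other with at most 6 genes between neighbours. Of these 11, 4 were called higher in lcs7 at 0.3 mM calcium, beside 6.99% of all genes, and 5 rose with low calcium in lcs7, beside 10.0% of all genes. The last 4, CYP71B34, CYP71B35, CYP71B36 and CYP71B37, have no gene between them. CYP71B34 had 444.4, 322.2 and 376.3 in lcs7 at 0.3 mM calcium, against 322.7, 476.5 and 423.7 in Col-0 at 0.3 mM. These arrays overlapped, and the interval of the difference ran from -0.46 to 0.28, or from -0.22 to 0.68 with the 2 Col-0 arrays left out. CYP71B35 had 155.6, 94.6 and 126.1 in lcs7, all below the 168.5, 179.3 and 174.5 of Col-0 (-0.50 ± 0.19, adjusted p = 0.110, or -0.46 and 0.455 with those arrays left out). The adjacent genes of this run thus had differences of -0.09, -0.50, 1.74 and -0.01 at 0.3 mM calcium. The dimmer genes of the run had wide differences near background. CYP71B21 had 1.1, 1.7 and 1.4 in lcs7 at 2 mM, against 24.7, 11.4 and 9.1 in Col-0 at 2 mM calcium (-3.31 ± 1.28, adjusted p = 0.254), and the difference was -0.10 with signals under 20 raised to 20. CYP71B25 had 24.6, 10.4 and 21.6 in lcs7 at 0.3 mM, against 5.7, 3.7 and 7.8 in Col-0 at 0.3 mM calcium (1.69 ± 0.79, adjusted p = 0.187), or 0.14 with signals under 20 raised to 20. CYP71B16 ranged from 0.8 to 21.0 and overlapped in all comparisons. CYP71B38, which lies apart on chromosome 3, ranged from 4.7 to 43.9 and was not called. All 23 probe sets carry the plain suffix that the maker gives to probe sets not marked as shared, and the probe set shared by CYP71B19 and CYP71B20 was left out. Cross-hybridization between other near-identical copies was not tested.

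CYP71B28 and CYP71B29 are neighbours on chromosome 1, and CYP71B27, annotated as a transcribed pseudogene, lies 1 gene away. CYP71B29 had 246.6, 178.3 and 169.5 in lcs7 at 0.3 mM calcium, above the 105.7, 154.3 and 112.9 of Col-0 at 0.3 mM. In lcs7 at 2 mM it had 126.9, 141.2 and 144.2, and its difference with calcium in lcs7 did not pass (0.51 ± 0.19, adjusted p = 0.0823). CYP71B27 stayed between 10.0 and 32.8 in all arrays. In the run of CYP71B5, CYP71B30P and CYP71B31 on chromosome 3 no gene was called. CYP71B5 came nearest, with 539.5, 354.5 and 348.5 in lcs7 at 0.3 mM, against 207.3, 259.6 and 304.9 in lcs7 at 2 mM calcium (0.67 ± 0.24, adjusted p = 0.0716). CYP71B30P, named as a pseudogene, stayed at 15.6 or below. CYP71B31, which acts on the monoterpene alcohol linalool in flowers, was at 14.1 or below in every array.

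Outside CYP71B none of the 4 members was called in any of the 5 comparisons, and limma gave 0 of the 4 an unadjusted p under 0.05 in each. CYP84A4, which acts in the making of the phenolic arabidopyrones, was the 1 brighter gene of these. It had 84.6, 57.4 and 58.6 in lcs7 at 0.3 mM, against 63.5, 48.6 and 100.2 in Col-0 at 0.3 mM calcium. The groups overlapped in all comparisons and the 4 simple differences ran from -0.28 to 0.02, with an SE of 0.26. CYP78A9, a regulator of fruit and seed size, lay between 20.2 and 56.5 except for 1 Col-0 array at 2 mM with 7.0. CYP79A2, which makes phenylacetaldoxime from phenylalanine for benzylglucosinolate, was at 5.4 or below in every array. CYP51G2, annotated as a transcribed pseudogene related to sterol 14-demethylase, had 26.8, 32.8 and 43.3 in lcs7 at 2 mM, all just above the 25.9, 4.6 and 19.6 of Col-0 at 2 mM calcium (1.34 ± 0.65, adjusted p = 0.376). With signals under 20 raised to 20 that difference was 0.63.

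Partner genes of the P450 pathways were mostly not among the named genes. Of 25 listed genes of the glucosinolate and camalexin pathway 1 was measured, and of 8 P450 reductases and cytochromes b5 and 7 genes of jasmonate synthesis 0 were. The measured one, UGT74B1, a glucosyltransferase of glucosinolate synthesis, was higher in lcs7 than in Col-0 at 0.3 mM calcium (0.60 ± 0.17, adjusted p = 0.0421) and rose with low calcium in lcs7 (1.09 ± 0.17, adjusted p = 0.00224). In Col-0 it differed by 0.44 ± 0.17 (adjusted p = 0.232) between the calcium levels. Its interaction of genotype and calcium, 0.64 ± 0.24, did not pass (limma adjusted p = 0.221). With the low-calcium Col-0 replicates 2 and 3 left out the difference between the lines at 0.3 mM was 0.82 (adjusted p = 0.107) and that in Col-0 was 0.22 (adjusted p = 0.706).

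Over the 4 groups, 7 of 23 members had all 3 lcs7 arrays at 0.3 mM calcium above the other 9 arrays, beside 9.83% of all genes. They are CYP71B6, CYP71B22, CYP71B23, CYP71B24, CYP71B26, CYP71B29 and CYP71B36. Of the 15 calls at members in the 5 comparisons, 10 were kept in each of the 12 fits without 1 array and 8 with the low-calcium Col-0 replicates 2 and 3 left out. The 10 included 6 of the 7 calls of low calcium in lcs7, all but CYP71B37.

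**Figure D4:**
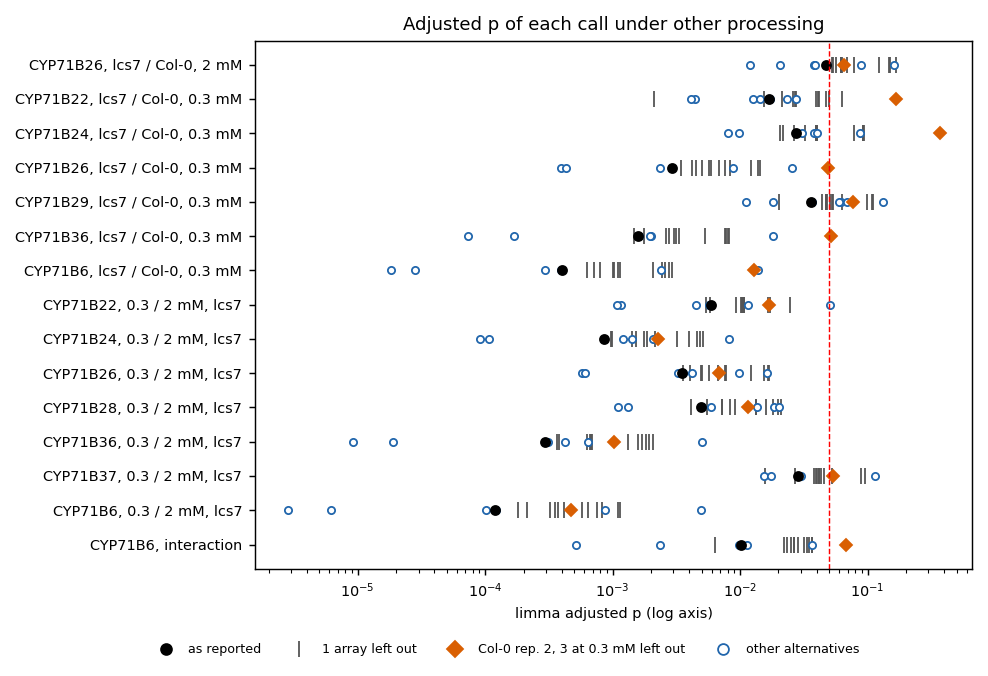
Limma adjusted p (log axis) of the 15 calls as reported (black), with 1 array left out (ticks), with Col-0 replicates 2 and 3 at 0.3 mM left out (orange) and under the other alternatives (blue rings), with a dashed line at 0.05. The calls of CYP71B6, CYP71B24, CYP71B26, CYP71B28 and CYP71B36 for low calcium in lcs7 lie left of the line under every alternative shown, while that of CYP71B26 between the lines at 2 mM lies right of it in all 12 fits without 1 array.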

How the data were processed

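Biotin-labelled RNA was hybridized to Affymetrix arrays. The deposited values are intensities on a linear scale, 22746 probe sets per array, with a floor of 0.1. Per the submitters' processing notes the authors used RMA and oligo 1.32.0. The values are not on a log2 scale as deposited and do not share quantiles, so the summarisation is not known. The number of arrays limits the precision.

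Of 13513 probe sets with 1 named gene, the one with the highest mean log2 signal per gene was kept, which left 13356 genes. Tests used limma (version 3.58.1, R 4.3.3) on log2 signals without an offset. All 12 arrays entered a model of 4 group means with eBayes, and 2-sided p-values were adjusted over all genes by Benjamini-Hochberg. The fit was tested on simulated data, for lcs7 against Col-0 at 0.3 mM calcium, with 50 genes changed at each fold. It recovered 24% of them at 1.5-fold, 42% at 2-fold, 72% at 4-fold and 82% at 8-fold, with 9 false calls. Members, role lists and alternatives were chosen with earlier results of these data known. Named were all called members, measured members of the role lists and the 5 members with the highest and the 5 with the lowest mean signals. CYP51G2, CYP71B5, CYP71B25, CYP71B27, CYP71B35 and CYP71B38 fall outside that rule and were added, after their values were seen, to account for every member. Gene names came from the platform annotation and RefSeq (TAIR10.1), and gene order from the RefSeq start positions. Figures were drawn with matplotlib 3.10.9. The alternatives were other offsets, filters, scalings and probe set rules, a fold limit, only the compared groups, a replicate block and arrays left out.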

Additional observations from a re-analysis of the deposited data

Results flagged for a closer look

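For CYP71B6 the genotype effect at 0.3 mM minus that at 2 mM calcium was 1.69 on the log2 scale (limma interaction, adjusted p = 0.0102), so the difference itself passed with all 12 arrays. With the low-calcium Col-0 replicates 2 and 3 left out it was 1.45, which rests on 1 Col-0 array at 0.3 mM. For CYP71B28 every lcs7 array was above every Col-0 array at 0.3 mM calcium (731.4 to 783.9, against 608.5 to 678.3) and below every Col-0 array at 2 mM calcium (446.4 to 521.8, against 573.5 to 734.5). Such a separation, in either direction, was seen for 35.7% of all genes at 0.3 mM and 21.4% at 2 mM calcium. The interaction of CYP71B28, 0.59, did not pass (limma adjusted p = 0.0999). A genotype effect that differs between the calcium supplies was thus not shown for this gene, while its rise with low calcium in lcs7 passed.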

How the results depend on the processing

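Of 2337 differences of a member under an alternative, 2259 kept their side of the threshold, 50 lost a call, 28 gained one, and 0 called ones changed sign. Of 1996 not called either way, 88 changed sign. For lcs7 against Col-0 at 2 mM calcium the 1 call became 2 with an offset of 50 or without the 40% dimmest genes (12 of 23 members kept), and limma called 0 with only the compared groups, with a fold of at least 2, under the replicate block or with the low-calcium Col-0 replicates 2 and 3 left out (4 members at an unadjusted p under 0.05 with only the compared groups, 6 in the others). Leaving out 1 array gave 0 to 1 (4 to 7 unadjusted). At 0.3 mM calcium the 6 calls became 3 with a fold of at least 2 and 2 without those Col-0 arrays, and ran from 3 to 6 without 1 array. In Col-0 the 0 calls became 2 with the offset and 3 without the dimmest genes. For low calcium in lcs7 the 7 calls ran from 5 to 10. The interaction's 1 call became 4 with the offset or without the dimmest genes, and 0 without Col-0 replicates 2 and 3 (6 unadjusted). The causes of these changes were not tested. Some of these fits, but not all, used fewer genes or arrays. Over all genes the offset moved the calls at 2 mM calcium to 617, those in Col-0 to 480 and the interaction to 794, and leaving out the dimmest genes to 639, 665 and 763. A fold of at least 2 left 189, 806, 31, 1072 and 187 calls in the order 2 mM, 0.3 mM, Col-0, lcs7 and interaction. With only the compared groups 83, 1322 and 0 were called in the first 3 (1716 unadjusted in Col-0). The block gave 220, 17 and 102 at 2 mM, in Col-0 and for the interaction, and 1 array left out gave as few as 138, 1493, 6, 2064 and 57 in the order above, and up to 79 in Col-0. Median centring gave 25 in Col-0. With the low-calcium Col-0 replicates 2 and 3 left out 747 were called at 0.3 mM, 75 in Col-0 and 0 for the interaction (1869 unadjusted). The replicate numbers did not pair the arrays: 3 of 18 same-numbered pairs had a correlation of deviations over 0.1, and 3 of 12 arrays correlated best with their own number. Under the replicate block 13 of the 15 calls passed, with 5 members called at 0.3 mM and 8 in lcs7. The median over the members moved by over 1 SD between replicates in 1 of 104 cases, to 0.10 for low calcium in lcs7 with the offset.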
